A study of Mus musculus with 16 samples.

Results

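Of 16 RNA-seq libraries of serum-starved mouse embryonic fibroblasts (MEFs), 8 carried high mRNA of Bex1, Wnt7a and Fgfbp1, and these 8 are described here. They make up 4 groups of 2 libraries. All cells carried MycER, a fusion of Myc with the hormone-binding part of the estrogen receptor that 4-hydroxytamoxifen (OHT) switches on. By their labels, MycER OHT cells had received OHT (400 nM), YAP2S Y27 cells expressed YAP2S (YAP with serines 127 and 381 changed to alanine) and had received the ROCK inhibitor Y27632 (50 µM; Y27), MycER OHT Y27 cells had received OHT and Y27, and YAP2S cells expressed YAP2S with neither agent. The other 8 libraries were labelled YAP2S OHT Y27, MycER Y27, YAP2S OHT and MycER. Nothing says whether 2 libraries of a group came from separate cultures, so p-values measure the spread between libraries, which may be technical.

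Myc is a transcription factor that pairs with Max, binds E-box sequences such as CACGTG, and is known for raising genes of ribosome production, nucleotide synthesis and the cell cycle. YAP enters the nucleus under high cytoskeletal tension and acts through TEAD factors, with Ctgf, Cyr61 and Ankrd1 among its best-known targets. ROCK kinases drive actomyosin contraction, and their inhibition by Y27632 lowers that tension. The question put to these libraries was whether Y27 alters the transcriptional answer to OHT.

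The labels carry a doubt that bears on every comparison. The libraries were chosen by values, so the marker levels below describe the choice and test nothing. Bex1, a small adaptor protein of neural cells, stood at 19.0 and 19.8 RPKM (reads per kilobase of exon, scaled to a library of 1 M reads) in MycER OHT, at 16.2 and 20 RPKM in YAP2S Y27, at 7.64 and 7.49 RPKM in MycER OHT Y27 and at 16 and 16.1 RPKM in YAP2S. Wnt7a, a secreted Wnt ligand, had 16.8 and 14.4 RPKM in MycER OHT, 17.8 and 20.8 RPKM in YAP2S Y27, 2.86 and 2.04 RPKM in MycER OHT Y27, and 8.52 and 7.45 RPKM in YAP2S. Fgfbp1, a carrier of fibroblast growth factors, had 12.1 and 11.1 RPKM in MycER OHT, 15.2 and 11.4 RPKM in YAP2S Y27, 4.28 and 7.57 RPKM in MycER OHT Y27, and 12.6 and 10.8 RPKM in YAP2S. The MycER OHT Y27 libraries were thus lowest in all 3 markers, yet far above the libraries left out. Just inside the choice, the lowest of the 8 had 7.49 RPKM of Bex1, 2.04 RPKM of Wnt7a and 4.28 RPKM of Fgfbp1. Just outside, the highest of the other 8 had 1.01, 0.571 and 0.976 RPKM of these genes.

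**Figure D1:**
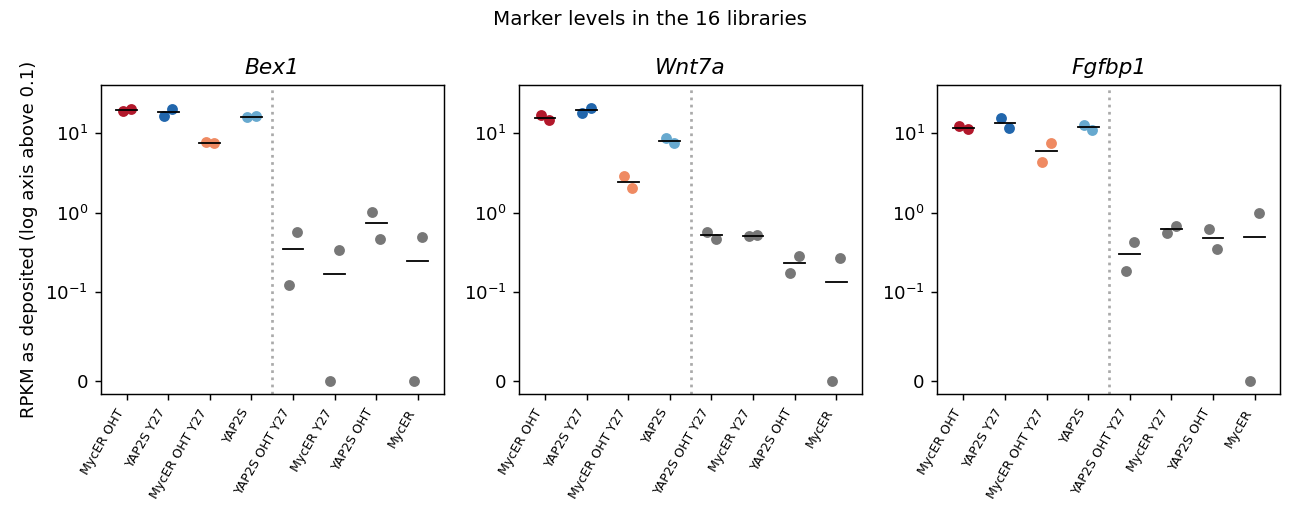
Bex1, Wnt7a and Fgfbp1 in each of the 16 libraries, in RPKM as deposited on an axis that is logarithmic above 0.1 and linear below. Points are libraries, bars are means of 2 libraries, and the dotted line separates the 8 libraries described here (left) from the other 8. Every library on the left lies above every library on the right for each gene, and MycER OHT Y27 lies lowest on the left.

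So the groups labelled MycER OHT and MycER OHT Y27, which by their labels lack YAP2S, carried the same 3 markers as the groups labelled YAP2S, and the OHT-treated groups labelled YAP2S did not. All 8 libraries would read as YAP2S cells if YAP2S labels were exchanged among the OHT-treated groups. No exchange was made here, and these data cannot settle which is right. The doubt decides what the contrast means, in which the difference between MycER OHT and YAP2S Y27 (the first pair) was set against that between MycER OHT Y27 and YAP2S (the second pair). As labelled, the members of each pair differ in YAP2S, OHT and Y27 at once, and the contrast equals minus the sum of the labelled Y27 effects in MycER OHT and in YAP2S cells. With YAP2S labels alone exchanged it would still be that sum. It would be the change of the OHT response with Y27 only if the Y27 labels of the OHT-treated groups were exchanged as well, so that MycER OHT had received Y27 and MycER OHT Y27 had not. The pairs share no library.

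Readouts of YAP were also in view when the pairs were made, and are given with no test. Ctgf, which encodes a matricellular growth factor, had 67.1 and 60.8 RPKM in MycER OHT and 64.3 and 60.6 RPKM in YAP2S Y27. It had 145 and 155 RPKM in MycER OHT Y27 and 94.8 and 93.1 RPKM in YAP2S. Cyr61, of the same family, had 98.4 and 102 RPKM in MycER OHT, 110 and 101 RPKM in YAP2S Y27, 248 and 303 RPKM in MycER OHT Y27, and 118 and 128 RPKM in YAP2S. Both genes were highest in MycER OHT Y27, and MycER OHT lay near YAP2S Y27. Ankrd1, a nuclear ankyrin-repeat protein, had 64.0 and 69.0 RPKM in MycER OHT, 74.1 and 70.4 RPKM in YAP2S Y27, 143 and 162 RPKM in MycER OHT Y27, and 92.6 and 95.2 RPKM in YAP2S. These high values in MycER OHT Y27 depend on scaling: after quantile normalization the log2 difference between MycER OHT Y27 and YAP2S was -0.29 for Ctgf, -0.25 for Cyr61 and -0.27 for Ankrd1, of the opposite sign to the deposited values.

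Depth was very uneven. MycER OHT had 15.71 and 13.49 M reads, YAP2S Y27 13.86 and 14.99 M, YAP2S 14.74 and 13.05 M, and MycER OHT Y27 only 3.628 and 2.619 M; the other 8 libraries had 1.763 to 12.58 M. One read of a 2-kb gene was worth 0.138 and 0.191 RPKM in MycER OHT Y27, and 0.0318 to 0.0383 RPKM in the other 6 of the 8 libraries. The highest RPKM in a library was 391.5 and 532.2 in MycER OHT Y27, against 118.8 to 137.0 in the other 6. In no library did a gene reach 2 reads per base: the most densely read gene came to 71% and 69.7% of that number in MycER OHT Y27, and to 88.5% to 93.4% in the other 6. Whether duplicate reads were removed is not given in the sources used here. The SD of the log2 difference between the 2 libraries of a group was 0.343 in MycER OHT Y27 and 0.173 to 0.199 in the other 3 groups. Fibroblasts hardly use the 1458 olfactory, vomeronasal and trace amine-associated receptor genes. Reads on them made up 0.0172% and 0.0173% of MycER OHT Y27 and 0.0088% to 0.0115% of the other 6 libraries. Replication-dependent histone genes took 0.171% and 0.235% of reads in MycER OHT Y27 and 0.0997% to 0.133% in the others. Depth and group cannot be told apart for MycER OHT Y27.

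The fibroblast identity of the label held for most markers. Col1a1, Col1a2, Col3a1, Vim, Pdgfrb, Fn1 and S100a4 were all at 27.5 RPKM or more in each of the 8 libraries, while Lum was at 0 in all of them and Thy1, Pdgfra and Dcn stayed below 1 RPKM. The 12 fibroblast markers summed to 467 and 491 RPKM in MycER OHT and to 521 and 487 in YAP2S Y27. They summed to 969 and 1170 in MycER OHT Y27 and to 511 and 550 in YAP2S. The high sum in MycER OHT Y27 depended on scaling. The 8 markers tested had a median log2 difference over YAP2S of 0.77 before normalization, 0.14 after quantile normalization and 0.01 after cyclic loess. The macrophage markers summed to 17.1 and 17.7 RPKM in MycER OHT Y27 and to 32.1 to 43.1 RPKM in the other 6, most of it Cd14, with Tyrobp at 0 and Ptprc at 0.109 RPKM or less. Endothelial markers summed to 1.64 to 3.74 RPKM, and epithelial markers to 59.4 to 83.4 RPKM, nearly all from Krt19 with Krt5 at 0. In bulk RNA, fewer cells of a type and less RNA per cell cannot be told apart. The part of these markers in the results below was not tested.

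Myc itself, read on the mouse gene, had 46.0 and 43.3 RPKM in MycER OHT, 53.4 and 53.7 RPKM in YAP2S Y27, 34.4 and 34.4 RPKM in MycER OHT Y27, and 54.5 and 53.6 RPKM in YAP2S. It was lower in MycER OHT Y27 than in YAP2S by a log2 difference of -0.65 ± 0.13 (SE; adjusted p = 0.00346), and the -0.35 ± 0.13 between MycER OHT and YAP2S Y27 missed the threshold (adjusted p = 0.222). Yap1 had 27.9 and 25 RPKM in MycER OHT, 23.1 and 25.8 RPKM in YAP2S Y27, 25.4 and 22.8 RPKM in MycER OHT Y27, and 22.3 and 25.3 RPKM in YAP2S. The 4 groups overlapped in Yap1. They were chosen for shared marker levels, so this overlap cannot say which cells carried the mutant. Esr1, the gene of the estrogen receptor, had 0.963 and 0.934 RPKM in MycER OHT, 1.02 and 1.01 RPKM in YAP2S Y27, 1.95 and 1.98 RPKM in MycER OHT Y27, and 1.24 and 1.26 RPKM in YAP2S. Whether transgene reads fall on these genes is not given in the sources used here.

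A set of ribosome production genes was higher in the OHT-labelled group of both pairs. Log2 differences here and below are on quantile-normalised log2(RPKM + 1), with SE, and a call means an adjusted p under 0.05 over 13028 genes. Of 61 ribosome biogenesis genes tested, 6 were higher and 0 lower in MycER OHT than in YAP2S Y27, where 1.8% of all genes were called higher and 0.537% lower, and 59 of 61 had a positive difference (median 0.28, against -0.02 for all genes). In MycER OHT Y27 against YAP2S, 32 were higher and 0 lower, where 17.8% of all genes were called higher and 17.7% lower (median 0.32, against 0 for all genes). Before normalization and after cyclic loess none of the 61 was called in MycER OHT against YAP2S Y27, with a median of 0.22 in each. The 6 genes called higher there were Heatr1, Rrp9, Rrp1b, Pwp2, Cirh1a and Ddx10, and each was also higher in the second pair.

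Heatr1, which is needed for RNA polymerase I transcription and for the small ribosomal subunit, had 47.3 and 49.6 RPKM in MycER OHT, against 37.2 and 38.2 RPKM in YAP2S Y27. It had 54.4 and 54.4 RPKM in MycER OHT Y27, against 37.4 and 37.6 RPKM in YAP2S. The log2 difference was 0.45 ± 0.08 in each pair (adjusted p = 0.0215 and 0.00201). The difference between the pairs was -0.01, with a 95% interval of -0.27 to 0.25. Rrp9, a protein of the U3 snoRNP that guides early cleavage of pre-rRNA, had 75 and 78.7 RPKM in MycER OHT against 59.3 and 52.7 RPKM in YAP2S Y27, and 105 and 133 RPKM in MycER OHT Y27 against 57.1 and 53.1 RPKM in YAP2S. The groups of each pair did not overlap, with log2 differences of 0.63 ± 0.10 and 0.51 ± 0.10 (adjusted p = 0.0105 and 0.00287).

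RNA polymerase I, which transcribes rRNA, also had genes called higher in both pairs. Of 13 subunits and factors, 3 were higher in MycER OHT than in YAP2S Y27 (median 0.18), beside 1.8% of all genes, and 0 before normalization. In MycER OHT Y27 against YAP2S 8 were higher and 1 lower (median 0.36), beside 17.8% and 17.7% of all genes. Polr1b, its second-largest subunit, had 47.1 and 49.3 RPKM in MycER OHT against 32.2 and 31.8 RPKM in YAP2S Y27, and 51.4 and 54.0 RPKM in MycER OHT Y27 against 31.6 and 28.9 RPKM in YAP2S. Its log2 difference was 0.71 ± 0.08 in the first pair and 0.79 ± 0.08 in the second (adjusted p = 0.000987 and 8.07e-05). Polr1e, another subunit, and Taf1c, part of the promoter selectivity factor SL1, were the other genes called in both pairs.

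Other gene groups tied to Myc had 0 to 2 calls each in the first pair, where 1.8% of all genes were called higher, and are to be read against 17.8% higher and 17.7% lower in the second. Of 29 nucleotide synthesis genes, 1 was higher in MycER OHT than in YAP2S Y27 and 12 were higher and 2 lower in MycER OHT Y27 than in YAP2S. The 1 gene was Ppat, the first enzyme of purine synthesis, with log2 differences of 0.46 ± 0.09 and 0.83 ± 0.09 in the pairs. Of 36 classical Myc targets, 2 were higher in the first pair, Slc16a1, a lactate transporter, and Tfrc, the transferrin receptor, against 15 higher and 2 lower in the second. DNA replication genes gave 0 calls of 46 in the first pair (median -0.02) and 8 higher in the second (median 0.20, but -0.14 before normalization), a share near that of all genes. Mitotic genes gave 0 calls of 34 in the first pair (median -0.16), and 3 higher and 1 lower in the second (median -0.03). Mcm5, a subunit of the replicative helicase, had 40.2 and 41.1 RPKM in MycER OHT against 42.2 and 41.2 RPKM in YAP2S Y27, and 45.4 and 56.3 RPKM in MycER OHT Y27 against 41.8 and 38.3 RPKM in YAP2S. Neither of its differences passed the test (adjusted p = 0.885 and 0.14).

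In all, 234 genes were higher and 70 lower in MycER OHT than in YAP2S Y27, and 2322 were higher and 2301 lower in MycER OHT Y27 than in YAP2S. The even split of the second pair depended on scaling. Without normalization 1517 genes were called up and 4972 down, and the median gene stood at -0.3. The split was 2329 and 2561 after cyclic loess, and 2211 and 2227 by voom, which was quantile-normalised too. The shares of 17.8% and 17.7% set beside each list are those after quantile normalization. Called in the same direction in both pairs were 203 higher and 63 lower genes, or 1.56% and 0.484% of all genes, and 0 were called in opposite directions. These are 86.8% of the higher and 90% of the lower genes of the first pair, and 8.74% and 2.74% of those of the second. Across all genes the differences of the pairs had a Pearson r of 0.448 and a Spearman rho of 0.449, in which genes are not independent replicates. The 203 genes had a median log2 difference of 0.68 in MycER OHT against YAP2S Y27 and of 0.77 in MycER OHT Y27 against YAP2S. The 63 genes had -0.57 and -0.83. Both sets were picked for passing in both pairs, so these medians cannot say whether the pairs changed alike in size. The 2322 genes called higher in the second pair had a median of 0.58 there and 0.12 in the first. For the 2301 lower genes it was -0.57 and -0.14. The 234 genes called higher in the first pair had 0.66 there and 0.69 in the second, and the 70 lower genes -0.59 and -0.77. Leaving out a library of MycER OHT or YAP2S Y27 left 19 to 31 higher and 1 to 2 lower genes. Leaving out one of YAP2S left 119 and 120 higher and 30 and 32 lower, and one of MycER OHT Y27 160 and 161 higher and 58 and 60 lower. In all, 27 higher and 4 lower genes kept both calls under every scaling tried. With the spread taken from the 8 libraries alone, 564 were higher and 371 lower in both, and 46 went opposite ways.

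**Figure D2:**
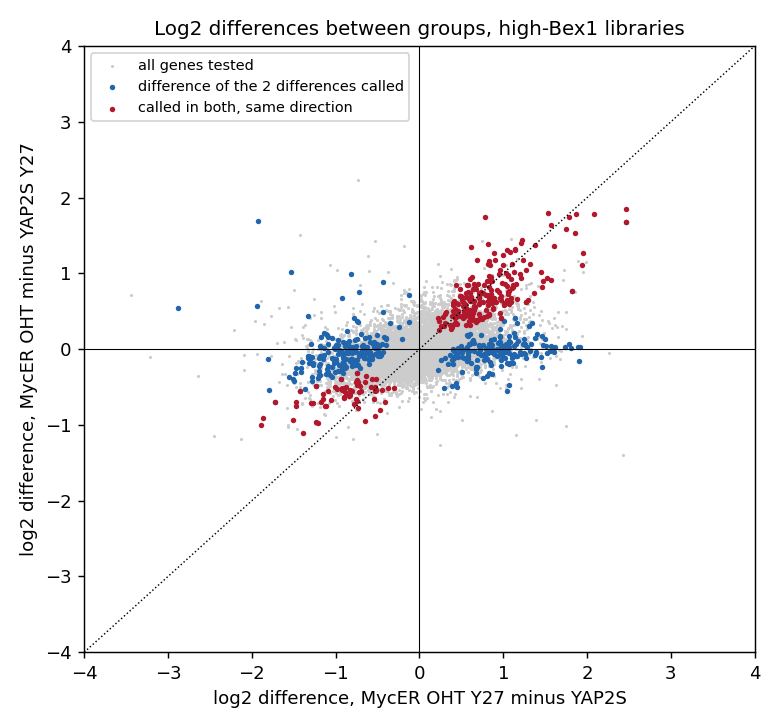
Each of 13028 genes by its log2 difference between MycER OHT Y27 and YAP2S (horizontal) and between MycER OHT and YAP2S Y27 (vertical), both on quantile-normalised log2(RPKM + 1), with the dotted line where the differences are equal. Red points are the 266 genes called in the same direction in both, and lie along the dotted line. Blue points are the 374 genes whose differences differed, and nearly all lie beside the horizontal axis.

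Among the highest of the 203 were genes outside ribosome production. Il15ra, the alpha chain of the interleukin-15 receptor, had 9.66 and 8.77 RPKM in MycER OHT against 1.96 and 2.21 RPKM in YAP2S Y27, and 11.7 and 12.6 RPKM in MycER OHT Y27 against 2.14 and 2.33 RPKM in YAP2S. Its log2 difference was 1.68 ± 0.12 in the first pair and 2.47 ± 0.12 in the second, and the difference between them, -0.78, passed the test (adjusted p = 0.0369). Pdxp, a phosphatase that acts on pyridoxal phosphate and on cofilin, had 39.5 and 40.1 RPKM in MycER OHT against 15.7 and 14.2 RPKM in YAP2S Y27, and 42.3 and 51.5 RPKM in MycER OHT Y27 against 14.7 and 13 RPKM in YAP2S. St6galnac4, a sialyltransferase, had 23.0 and 21.9 RPKM in MycER OHT against 6.84 and 7.69 RPKM in YAP2S Y27, and 21.7 and 22.0 RPKM in MycER OHT Y27 against 8.40 and 7.89 RPKM in YAP2S. For Pdxp the pairs differed by -0.33 (95% interval -0.67 to 0.01) and for St6galnac4 by -0.16 (-0.47 to 0.14). Smtnl2, a smoothelin-like protein, Lsmem2, Fam185a, Rasl11a, a small GTPase of the Ras family, and Reep6, a membrane-shaping protein of the endoplasmic reticulum, rose in both pairs by log2 differences of 1.27 to 1.95.

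The genes lowered in both pairs covered several functions. Ccng2, cyclin G2, known to be high in resting cells, had 11.3 and 11.1 RPKM in MycER OHT against 22.8 and 22.8 RPKM in YAP2S Y27, and 2.37 and 3.58 RPKM in MycER OHT Y27 against 18.8 and 19.1 RPKM in YAP2S. Its log2 difference was -1 ± 0.17 in the first pair and -1.89 ± 0.17 in the second, and the difference of 0.90 between them missed the threshold (adjusted p = 0.0593). Trp53inp1, a p53-inducible regulator of stress and autophagy, Tlr2, a sensor of bacterial lipoproteins, Edn1, the vasoconstrictor endothelin-1, Stx11, a SNARE protein, and Suox, sulfite oxidase, fell by -0.72 to -0.98 in the first pair and by -0.74 to -1.47 in the second. Clock genes went both ways: Nr1d1, a repressor of the clock, was higher by 1.13 ± 0.19 and 1.31 ± 0.19, while Arntl, which encodes BMAL1, was lower by -1.10 ± 0.13 and -1.39 ± 0.13.

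Promoters of the genes that rose in both pairs were searched for the E-box CACGTG. Windows of 250 bases before to 50 after the start site, from RefSeq (GRCm38.p6), were found by symbol for 151 of the 203 genes and held the motif, which reads the same on both strands, in 25 (16.6%). It was in 974 of 9524 windows of all genes tested (10.2%), in 3 of 50 windows of the genes that fell in both pairs (6%), and in 16 of 144 (11.1%) and 8 of 134 (5.97%) of the genes higher or lower in the difference between the pairs. The TEAD-type motif GGAATG, on either strand, was in 9.93% of the 151 windows and 12.3% of all. A match of letters is not a bound site, and no test was made. The windows of 2 of the 25 genes, chosen after their values were seen, are shown with the E-box in capitals. They had the largest rise by the smaller of their differences in the pairs, with genes of a single chromosome left out.
P2ry2 (chr7:101012004-101012303, minus strand): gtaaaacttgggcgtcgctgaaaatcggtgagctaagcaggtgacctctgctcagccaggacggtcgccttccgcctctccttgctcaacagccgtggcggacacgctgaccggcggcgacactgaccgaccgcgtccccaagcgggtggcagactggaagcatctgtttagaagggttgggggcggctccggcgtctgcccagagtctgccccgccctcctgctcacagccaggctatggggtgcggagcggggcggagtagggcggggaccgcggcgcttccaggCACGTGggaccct
Fzd9 (chr5:135250998-135251297, minus strand): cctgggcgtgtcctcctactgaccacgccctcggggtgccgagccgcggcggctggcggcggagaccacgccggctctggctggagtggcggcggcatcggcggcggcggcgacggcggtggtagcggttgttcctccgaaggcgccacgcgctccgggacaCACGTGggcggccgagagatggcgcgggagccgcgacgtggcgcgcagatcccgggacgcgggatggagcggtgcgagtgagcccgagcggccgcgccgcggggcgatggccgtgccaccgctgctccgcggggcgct
P2ry2, a receptor for extracellular ATP and UTP whose E-box starts at base 37 after the start site, had 7.75 and 7.24 RPKM in MycER OHT against 1.53 and 1.23 RPKM in YAP2S Y27, and 4.72 and 5.69 RPKM in MycER OHT Y27 against 1.20 and 0.899 RPKM in YAP2S. Fzd9, a Wnt receptor whose E-box starts at base -88, had 5.40 and 4.60 RPKM in MycER OHT against 1.09 and 1.20 RPKM in YAP2S Y27, and 3.26 and 1.99 RPKM in MycER OHT Y27 against 1.06 and 1.02 RPKM in YAP2S. The libraries of each pair did not overlap for either gene.

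The difference between the pairs, which with YAP2S and Y27 labels exchanged would be the change of the OHT response with Y27, called 192 genes higher and 182 lower of 13028 (1.47% and 1.4%, or 2.87% in either direction). Higher means that the difference of MycER OHT over YAP2S Y27 lay above that of MycER OHT Y27 over YAP2S. Leaving out any 1 of the 8 libraries left 0 calls, except 2 without MycER OHT Y27 replicate 1 and 30 without its replicate 2, and 0 calls were kept throughout. The spread of the other 8 libraries enters the test: 0 genes were called without either YAP2S OHT library, 1078 and 1088 without MycER replicate 1 and 2, 1648 and 1629 without YAP2S OHT Y27 replicate 1 and 2, and 3017 with none of the 8. The split also turned on processing, with 1767 higher and 417 lower before normalization, where the median of all genes was 0.30. By voom on the recovered reads, also quantile-normalised, 398 were higher and 670 lower. Under every scaling tried, 86 higher and 59 lower genes kept their call.

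Nearly all of these genes were also called in the pair that holds the shallow libraries. Of the 192 higher genes, 188 were lower in MycER OHT Y27 than in YAP2S and 3 were higher in MycER OHT than in YAP2S Y27. Of the 182 lower genes, 180 were higher in MycER OHT Y27 than in YAP2S and 0 were lower in MycER OHT than in YAP2S Y27. Of all genes, 17.7% were lower and 17.8% higher in the second pair, and 1.8% higher and 0.537% lower in the first. Both pairs are terms of the contrast that picked these genes, so calls in them follow in part from that choice. The median size of the log2 difference of the 374 genes was 0.11 between MycER OHT and YAP2S Y27 and 0.909 between MycER OHT Y27 and YAP2S. Only 9 of the 266 genes called in both pairs were among them. Read as the labels stand, the 192 genes had a median difference of -0.74 between MycER OHT Y27 and MycER OHT and of -0.06 between YAP2S Y27 and YAP2S, and the 182 genes of 0.92 and 0.02. Of the 192 genes, 180 were lower in MycER OHT Y27 than in MycER OHT, where 15.7% of all genes were called lower, and 7 were lower in YAP2S Y27 than in YAP2S, where 1.07% were (2.46% in either direction).

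The answer to whether Y27 changed the OHT response turned on which labels were taken to be exchanged. With YAP2S labels alone exchanged, the matching pairs would be MycER OHT Y27 over YAP2S Y27 set against MycER OHT over YAP2S, a contrast added after the data were seen. It called 1592 genes higher and 1635 lower (12.2% and 12.5%), where the contrast described here called 192 and 182. Both use the same 8 libraries, and the labelled Y27 effect in MycER OHT cells enters them with opposite signs. Any gene for which that effect is larger in size than the one in YAP2S cells must take the other sign in the added contrast. Such a turn of sign follows from how the contrasts are built. Cdkn1b, described below with Klf4, had -0.87 ± 0.12 in that contrast and 0.71 ± 0.12 in the one described here, and Klf4 had -3.72 ± 0.21 and 1.21 ± 0.21. Heatr1 had 0.04 ± 0.12 and -0.01 ± 0.12, and ribosome biogenesis genes had medians of -0.04 and -0.02, so neither reading called a change of Heatr1. Ribosome biogenesis genes were also higher in both of the added pairs, with 28 called higher of 61 between MycER OHT Y27 and YAP2S Y27 (19.2% of all genes) and 26 between MycER OHT and YAP2S (7.38% of all genes higher and 6.95% lower), and 0 lower in either.

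The genes with the largest positive difference were mostly low in MycER OHT Y27 alone. Trib3, a pseudokinase induced by ATF4 under nutrient stress, had 29.1 and 25.2 RPKM in MycER OHT against 29.8 and 29.1 RPKM in YAP2S Y27, and 8.06 and 8 RPKM in MycER OHT Y27 against 37.6 and 39.9 RPKM in YAP2S. The difference between the pairs was 1.67 ± 0.30 (adjusted p = 0.0322), with -0.13 ± 0.21 in the first pair and -1.80 ± 0.21 in the second. Ptx3, the long pentraxin of innate immunity, had 13.2 and 12.2 RPKM in MycER OHT against 11.1 and 11.4 RPKM in YAP2S Y27, and 11 and 8.34 RPKM in MycER OHT Y27 against 27.2 and 31.8 RPKM in YAP2S. Here YAP2S was the group that stood apart, and the difference was 1.31 ± 0.22 (adjusted p = 0.0321). Rpusd4, a pseudouridine synthase of mitochondrial RNA, had 26.0 and 27.8 RPKM in MycER OHT against 23.1 and 25.5 RPKM in YAP2S Y27, and 6.44 and 4.67 RPKM in MycER OHT Y27 against 19.4 and 20.5 RPKM in YAP2S. Tpgs1, of the tubulin polyglutamylase complex, Cbr1, a carbonyl reductase, Emc4, of the endoplasmic reticulum membrane complex, Cotl1, an F-actin binding protein, Stbd1, a glycogen-binding protein, Sertad3 and Pdgfrl followed, with differences of 1.23 to 1.36. Their values in MycER OHT Y27 rest on few reads, from 9 and 5 for Sertad3 to 63 and 33 for Emc4. Sertad3 had 123 to 265 reads in the other 6 libraries.

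**Figure D3:**
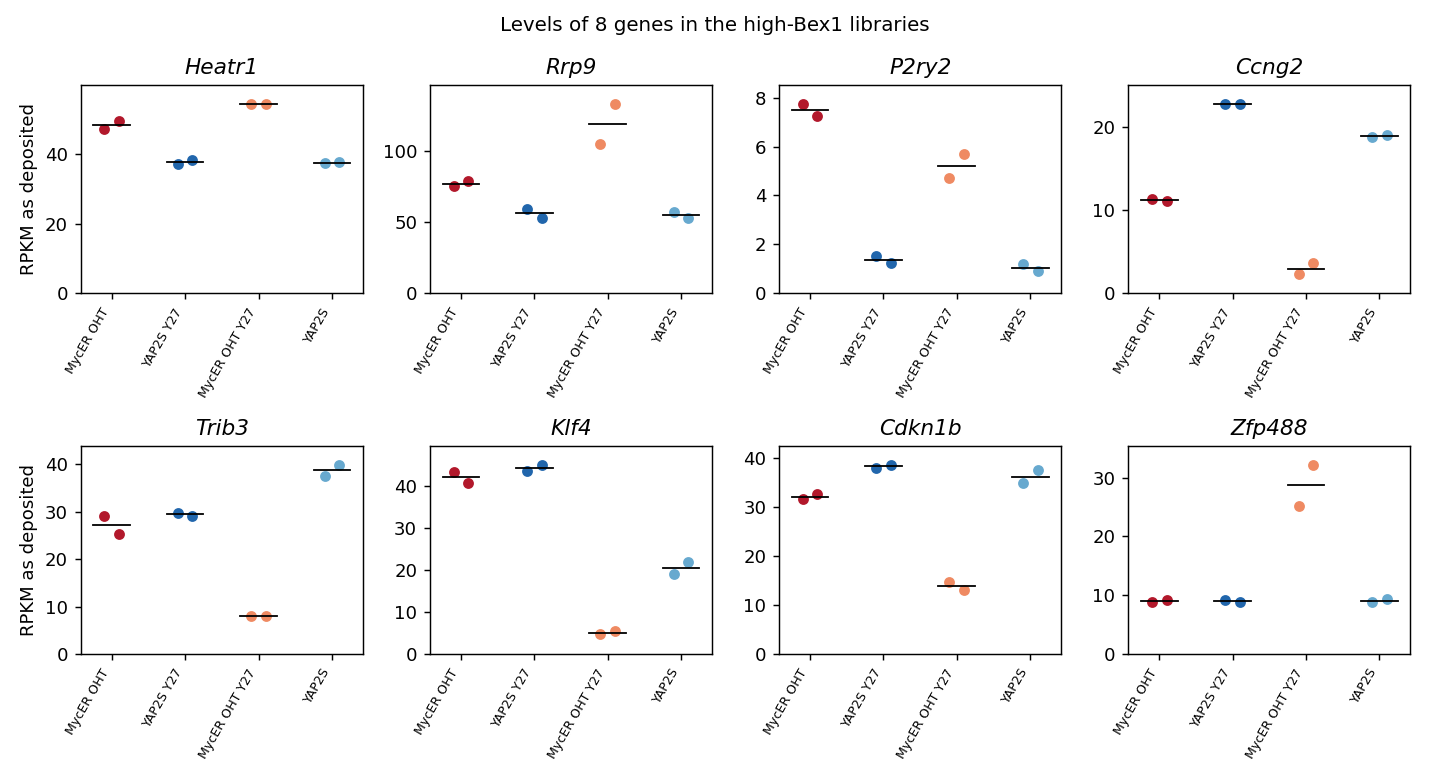
Levels of 8 genes in RPKM as deposited, with linear axes from 0. Points are libraries and bars are means of 2 libraries. Heatr1, Rrp9 and P2ry2 were higher and Ccng2 lower in MycER OHT than in YAP2S Y27 and in MycER OHT Y27 than in YAP2S; Trib3, Klf4 and Cdkn1b were lowest, and Zfp488 highest, in MycER OHT Y27.

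Of the 18 pathway lists, resting-cell and immediate early genes had the largest positive medians. Of 27 quiescence genes and CDK inhibitors, 4 were higher and 0 lower in the difference between the pairs (median 0.47, against 0 for all genes). Of all genes, 1.47% were called higher and 1.4% lower in that difference. In MycER OHT Y27 against YAP2S, 16 were lower and 2 higher (median -0.52), beside 17.7% and 17.8% of all genes. In MycER OHT against YAP2S Y27, 2 were lower and 1 higher (median -0.13), beside 0.537% and 1.8% of all genes. Cdkn1b, which encodes the CDK inhibitor p27, had 31.6 and 32.6 RPKM in MycER OHT against 38.1 and 38.7 RPKM in YAP2S Y27, and 14.8 and 13 RPKM in MycER OHT Y27 against 35.0 and 37.5 RPKM in YAP2S. The difference between the pairs was 0.71 ± 0.12 (adjusted p = 0.0321). Cdkn1c, which encodes p57, Sesn1, a sestrin that restrains mTORC1, and Mxd4, a Max partner that opposes Myc, had differences of 0.87 ± 0.18, 0.68 ± 0.12 and 0.58 ± 0.12. Cdkn1c had only 8 and 5 reads in MycER OHT Y27.

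Of 23 immediate early genes, 2 were higher and 0 lower in the difference (median 0.37), beside 1.47% and 1.4% of all genes. In MycER OHT Y27 against YAP2S 10 were lower, beside 17.7% of all genes, and 0 were called in the other pair. Klf4, a zinc finger factor linked to growth arrest, had 43.3 and 40.6 RPKM in MycER OHT against 43.5 and 45.0 RPKM in YAP2S Y27, and 4.71 and 5.39 RPKM in MycER OHT Y27 against 19.1 and 21.9 RPKM in YAP2S. It was lowest in MycER OHT Y27 and next lowest in YAP2S, and the difference was 1.21 ± 0.21 (adjusted p = 0.0322). Ier3 had 62.4 and 61.1 RPKM in MycER OHT against 65.8 and 65.4 RPKM in YAP2S Y27, and 31.1 and 31.2 RPKM in MycER OHT Y27 against 62.4 and 60.7 RPKM in YAP2S.

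Stress and lysosome lists had smaller positive medians. Of 26 ATF4 and unfolded protein response genes, 2 were higher in the difference, Trib3 and Xbp1 (median 0.19), beside 1.47% of all genes. By voom on the recovered reads 1 was higher and 5 lower in the difference. In MycER OHT Y27 against YAP2S 10 were lower and 1 higher, beside 17.7% and 17.8% of all genes. Of 31 lysosome and autophagy genes, 3 were higher in the difference (median 0.14), Atp6v0d1, of the proton pump, Map1lc3a and Sqstm1, the autophagy adaptor p62. For Sqstm1 the difference was 0.37, but -0.39 before normalization. In MycER OHT Y27 against YAP2S 17 of the 31 were lower and 4 higher (median -0.28), beside the same 17.7% and 17.8%. There voom called 10 lower and 5 higher. In MycER OHT against YAP2S Y27 none of the 31 was called in limma, as before normalization and after cyclic loess, though 0 of 31 had a positive difference, and voom called 1 lower. Atp6v0d1 had 49.3 and 51.0 RPKM in MycER OHT against 56.3 and 53.8 RPKM in YAP2S Y27, and 25.9 and 26.2 RPKM in MycER OHT Y27 against 48.8 and 49.7 RPKM in YAP2S.

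**Figure D4:**
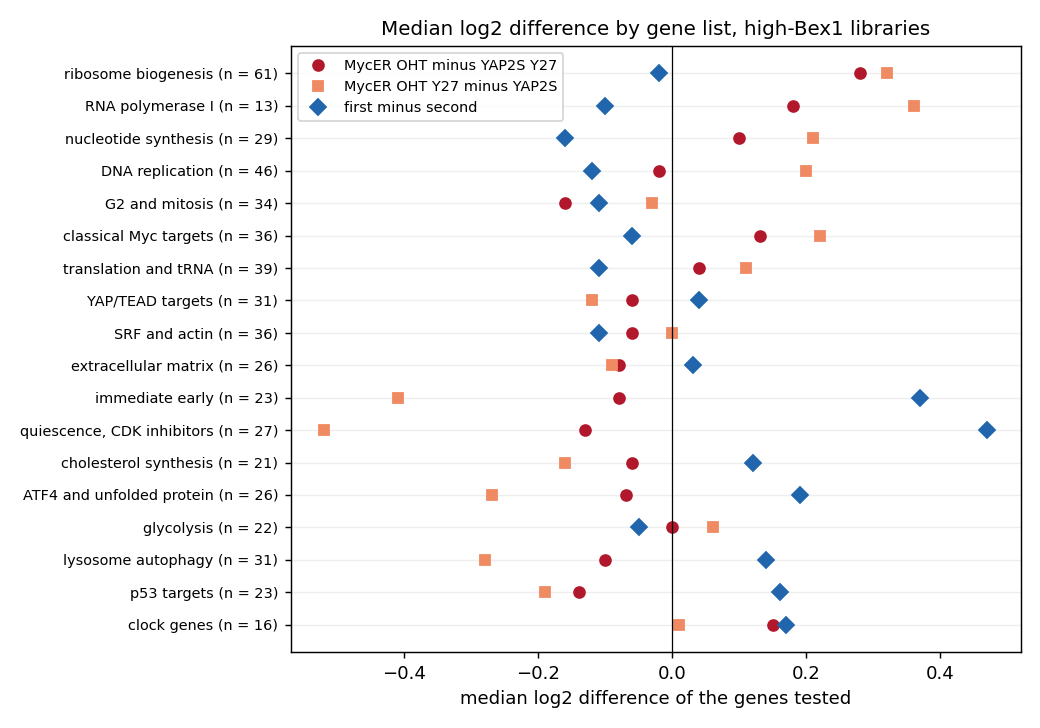
Median log2 difference of the tested genes of 18 lists, on quantile-normalised log2(RPKM + 1). Circles are MycER OHT minus YAP2S Y27, squares are MycER OHT Y27 minus YAP2S, and diamonds are the difference between them. Ribosome biogenesis is at 0.28 and 0.32 with a difference of -0.02, while quiescence genes are at -0.13 and -0.52 with a difference of 0.47.

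After quantile normalization the ribosome, polymerase I, nucleotide and Myc target lists had 0 genes called higher in the difference and 1 or 2 called lower, beside 1.4% of all genes. Of 61 ribosome biogenesis genes 0 were higher and 2 lower, Nhp2 and Ebna1bp2 (median -0.02), and by voom 0 were higher and 13 lower (median -0.15). Polymerase I genes gave 1 lower, Polr1a, nucleotide synthesis 2 lower, Atic and Nme1, and classical Myc targets 2 lower, Apex1 and Nme1, of which voom called 15 lower of 36. Targets of SRF, the factor that answers to actin, and of YAP and TEAD gave 0 calls of 36 and 31 in the difference (medians -0.11 and 0.04), but voom called 12 SRF and actin genes lower. In the contrast for YAP2S labels alone exchanged, SRF and actin genes had a median of 0.49 and YAP and TEAD targets of 0.19, given with no test. That contrast is the labelled Y27 effect in MycER OHT cells minus that in YAP2S cells. The direction of these effects was in view when the pairs were made. For SRF and actin genes they had medians of 0.30 in MycER OHT Y27 over MycER OHT and -0.17 in YAP2S Y27 over YAP2S. In the same contrast 15 of the 27 quiescence genes and CDK inhibitors were lower and 1 higher (median -0.61), beside 12.5% and 12.2% of all genes. That their sign is opposite to the one in the difference between the pairs follows in part from how the contrasts are built.

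The named genes with the most negative difference were highest in RPKM in both MycER OHT Y27 libraries. Phxr4 also varied among the other 6 libraries, with 8.30 and 5.21 RPKM in MycER OHT, 10.4 and 10.6 RPKM in YAP2S Y27, and 13.3 and 14.8 RPKM in YAP2S. Zfp488, a zinc finger repressor, had 8.76 and 9.20 RPKM in MycER OHT against 9.19 and 8.77 RPKM in YAP2S Y27, and 25.2 and 32.2 RPKM in MycER OHT Y27 against 8.76 and 9.28 RPKM in YAP2S. Its difference was -1.88 ± 0.39 (adjusted p = 0.0368). Olfr613, an olfactory receptor gene, had 4.03 and 4.26 RPKM in MycER OHT against 4.37 and 3.98 RPKM in YAP2S Y27, and 11.5 and 14.0 RPKM in MycER OHT Y27 against 4.09 and 4.38 RPKM in YAP2S. Gapdh, a glycolytic enzyme with many near-identical copies, had 34.0 and 35.5 RPKM in MycER OHT against 36.5 and 33.3 RPKM in YAP2S Y27, and 83.6 and 102 RPKM in MycER OHT Y27 against 35.4 and 36.5 RPKM in YAP2S. Naca, Gapdh and Zfp353-ps share sequence with copies elsewhere, so their reads could be split in counting. In reads, before division by depth, MycER OHT Y27 was not highest for these genes. Zfp488 had 393 and 363 reads there and 521 to 592 in the other 6 libraries. Olfr613 had 215 and 188 against 294 to 325, and Naca 945 and 865 against 1268 to 1402. Vmn1r58, a pheromone receptor gene, Naca, a nascent chain chaperone, Ap1s3, a clathrin adaptor subunit, Fgd4, an activator of Cdc42, Phxr4, Zfp353-ps and Cxcr2, a chemokine receptor, had differences of -1.46 to -1.80.

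The 182 lower genes held 15 pseudogenes and 2 olfactory, vomeronasal or trace amine-associated receptor genes. These were 9.34% of them, against 1.12% of all genes tested, while the 192 higher genes held 0. The median exonic length was 3827 bases for the lower genes, 1949 bases for the higher genes and 3136 bases for all. In 5 bins of length with nearly equal numbers of genes, from shortest to longest, the median difference was 0.05, 0.08, 0.05, -0.03 and -0.14. Removing the trend with length left 245 calls. The longest bin held 59 of the 182 lower genes and 5 of the 192 higher genes. The part of depth, of sequence copies and of length in these calls was not tested.

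**Figure D5:**
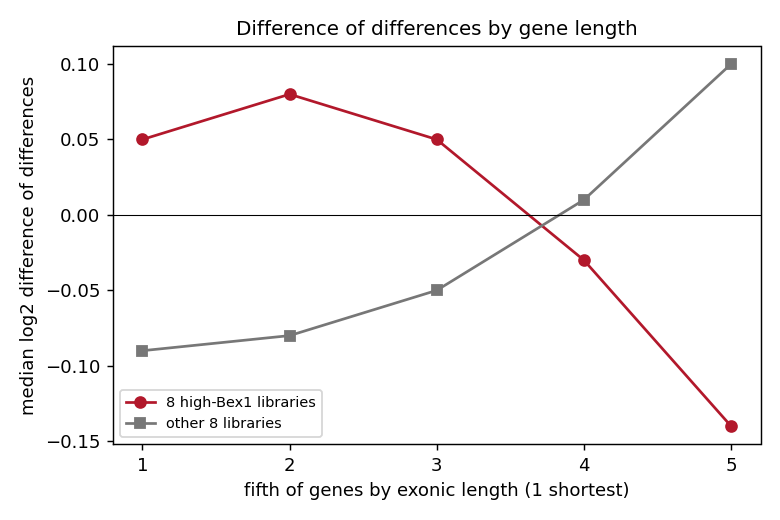
Median log2 difference of differences in 5 bins of exonic length, in the 8 high-Bex1 libraries (circles) and in the contrast of the other 8 libraries (YAP2S OHT Y27 over MycER Y27 set against YAP2S OHT over MycER) (squares). The medians go from 0.05 to -0.14 in the first and from -0.09 to 0.10 in the second.

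The other 8 libraries gave a contrast by their Y27 labels as they stand, YAP2S OHT Y27 over MycER Y27 set against YAP2S OHT over MycER, which has its shallowest library, MycER replicate 1, on the opposite side. It shares no library with the one above. It called 0 genes in limma, with 1357 at an unadjusted p under 0.05 and 1 called by voom, and 2777 without YAP2S OHT Y27 replicate 2, whose group had a replicate SD of 0.47. Of the 182 genes lower in the high-Bex1 libraries, 87.4% had a positive value there, against 47.3% of all genes, and of the 192 higher genes 62% had a negative value, against 52.7% of all. In the length bins its medians were -0.09, -0.08, -0.05, 0.01 and 0.10. The direct test of high-Bex1 against other libraries called 0 genes in limma, with 2808 at an unadjusted p under 0.05. It called 341 by voom, and in limma 2474 as deposited, 308 after cyclic loess and 227 without small RNAs and histone genes, so whether any gene differed between the library sets depended on the processing. If the Y27 labels were exchanged in the other 8 as well, their contrast would call 2077 genes higher and 2033 lower.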

How the data were processed

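RNA of serum-starved MEFs was sequenced from total RNA without poly(A) selection. The submitters' processing notes name TopHat2 2.0.8, SAMtools, featureCounts 1.4.5-p1 and mm9; strand setting, duplicate handling and annotation are not given in the sources used here. The authors deposited RPKM for 21671 genes, a unit inferred from the values. Reads behind each value were recovered from the steps between low values.

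Genes with at least 1 RPKM in at least 2 of 16 libraries (13028) were tested on quantile-normalised log2(RPKM + 1) with limma 3.58.1 (R 4.3.3; 1 coefficient per labelled group, variance trend, two-sided, 8 residual degrees of freedom, Benjamini-Hochberg adjustment). All 16 libraries shared 1 estimate of the spread. Scripts were tested on simulated data. Alternatives were no normalization, cyclic loess, pseudocount 0.1, other filters, no trend and a replicate block. Further ones were voom on recovered reads with quantile normalization, the 8 libraries alone and leaving out each library. Correction for gene length or for repeated positions, leaving out libraries outside a comparison, and pairs under another label exchange were chosen after seeing the data.

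Named genes were the 10 highest and 10 lowest called differences between the pairs, limited to genes averaging 5 RPKM or more over the 8 libraries with the same sign before normalization and after cyclic loess, the 8 largest in both pairs in each direction, up to 4 by p of each of 26 lists, and fixed genes. RNAs under 200 bases, predicted, histone and mitochondrial genes were left out of the ranked names. One gene that this rule names is not reported here. Other names were chosen after their values were seen. The members and lists were chosen with earlier results of these data known.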

Additional observations from a re-analysis of the deposited data

Results flagged for a closer look

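The difference between the pairs, MycER OHT over YAP2S Y27 set against MycER OHT Y27 over YAP2S, was tested directly, and 374 genes passed. It is 1 difference in 2 settings only if both the YAP2S and the Y27 labels of the OHT-treated groups were exchanged. Among the named genes, the log2 difference of differences was 1.67 for Trib3, 1.36 for Tpgs1, 1.35 for Cbr1, 1.33 for Rpusd4, 1.31 for Ptx3, 1.30 for Emc4, 1.26 for Sertad3, 1.25 for Pdgfrl, 1.23 for Stbd1 and 1.23 for Cotl1. It was -1.88 for Zfp488, -1.87 for Olfr613, -1.80 for Vmn1r58, -1.72 for Naca, -1.71 for Ap1s3, -1.61 for Fgd4, -1.59 for Phxr4, -1.52 for Zfp353-ps and -1.46 for Cxcr2. None of these calls was kept when each library was left out in turn.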

How the results depend on the processing

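Depth limits the second pair most: MycER OHT Y27 held 3.628 and 2.619 M reads, and its depth and treatment cannot be told apart. With 2 libraries a group, a call rests on the spread shared over all 16. The count for the difference between the pairs, 374, was 2184 as deposited, 636 after loess, 225 with no filter, 1068 by voom, 3017 with the 8 libraries alone, 245 length-corrected and 3227 for pairs as if YAP2S labels alone were exchanged, and 0 to 1648 with a library left out. For MycER OHT against YAP2S Y27, 304 became 42 as deposited, 161 after loess, 651 by voom, 1266 with the 8 libraries alone and 723 after duplicate correction (20 to 888 with a library left out). For MycER OHT Y27 against YAP2S, 4623 became 2832 with a log2 difference above 0.5 (2564 to 6028). Without normalization that count was 6489, of which 4972 went down. For MycER OHT Y27 against MycER OHT, 4056 became 6104 as deposited, 2352 with a log2 difference above 0.5 and 6521 with the 8 libraries alone (1731 to 2577). For YAP2S Y27 against YAP2S, 320 became 87 as deposited, 195 after loess, 647 by voom, 927 with the 8 libraries alone and 704 after duplicate correction (29 to 42). In the other 8 libraries, 0 became 5 as deposited, 1 after loess, 2 with pseudocount 0.1, 5 with no filter and 1 by voom (0 to 2777). For the high-Bex1 against the other libraries, 0 became 2474 as deposited, 308 after loess, 227 without small RNAs and histones, 104 without trend, 341 by voom and 102 after duplicate correction (0 to 2357), and the 8 libraries alone give no value. The cause was not tested.

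Replicate numbers did not pair the libraries (correlations of -0.201 to 0.16 over 6 pairs). With the replicate block the difference between the pairs called 153 genes, MycER OHT against YAP2S Y27 214, MycER OHT Y27 against YAP2S 4381 and YAP2S Y27 against YAP2S 246.

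Signs that turned, in the difference between the pairs: Cyr61 -1.22 as deposited and -0.82 by voom, Ctgf -0.64 as deposited, Sqstm1 -0.39 and -0.28, Impdh2 -0.66 and -0.54, and by voom Cdk4 -0.92, Ankrd1 -0.66 and Wdr74 -0.62. In MycER OHT Y27 against YAP2S they were Cdk4 1.07 as deposited, 0.03 after loess, 0.91 by voom and 0.48 duplicate-corrected, Cyr61 1.15, 0.21, 0.72 and 0.03, Ctgf 0.67 as deposited and 0.38 by voom, Sqstm1 0.33 and 0.19, Ankrd1 0.69 and 0.53, Impdh2 0.69 and 0.57, and Polr1c 0.23 by voom and 0.06 duplicate-corrected.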
